A study of Mus musculus with 6 samples.

Results

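Carbonic anhydrases are the enzymes that interconvert carbon dioxide and bicarbonate, and 9 of their genes (Car2, Car3, Car4, Car5b, Car8, Car9, Car12, Car13 and Car14) are described here, out of 29721 genes listed in the counts. They were taken by gene symbol as the isoforms of duct, acinar, fat and tumour cells, and all 9 were among the 17652 genes that passed the filter on low counts. The study sequenced messenger RNA from pancreas of Ela-myc mice aged 3 months, in 3 PARP2 KO animals and 3 WT animals, to ask what PARP2 does in pancreatic tumour development. Every animal of both groups carried Ela-myc, a Myc gene driven by the elastase promoter of acinar cells, the cells that make digestive enzymes. PARP2 is a nuclear enzyme that marks DNA breaks with ADP-ribose, and neither the deleted stretch of Parp2 nor whether every cell lost it is stated in the labels. The protocol text speaks of tumour samples while the tissue label is pancreas, and no label says which piece of the organ was taken.

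Carbonic anhydrases differ mainly in where in the cell they sit. Car2, Car3 and Car13 encode cytosolic enzymes, Car5b an enzyme of mitochondria, and Car4 an enzyme held on the outer cell surface by a lipid anchor. Car9, Car12 and Car14 encode proteins that cross the cell membrane and carry their active site outside, where they change the pH around the cell. Car8 encodes a protein of the same fold that has lost the enzyme activity and binds the calcium release channel encoded by Itpr1. In pancreas, carbonic anhydrase 2 supplies duct cells with the bicarbonate that they secrete.

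Libraries held 28105021 to 32055565 counts. Parp2 was lower in all knockout libraries, at 14.4, 12.4 and 13.6 CPM (counts relative to library size times TMM factor) in PARP2 KO and 40.5, 36.4 and 37.5 CPM in WT. The libraries differed widely in acinar RNA. A list of 14 acinar genes took 2.498%, 8.58% and 0.0126% of all counts in PARP2 KO replicates 1, 2 and 3 and 16.4%, 17.0% and 13.6% in WT replicates 1, 2 and 3. PARP2 KO replicate 3 was also lowest on lists of duct and islet genes, at 37.2 and 1.62 CPM in sum. WT libraries held 2043 to 3416 CPM of the duct genes and 1389 to 3374 CPM of the islet genes. By its acinar genes and its summed duct and islet genes, PARP2 KO replicate 3 thus goes against its label of pancreas. In whole tissue, fewer cells of a type and less RNA per cell cannot be told apart.

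All 9 carbonic anhydrase genes passed the test between PARP2 KO and WT (edgeR, adjusted p under 0.05), in a comparison in which 53% of all tested genes did. The transcripts of the 5 cytosolic, mitochondrial and lipid-anchored enzymes rose (28% of all genes were called higher), and those of the 3 membrane-crossing enzymes and of Car8 fell (25% of all genes were called lower). With scaling by library totals alone, 42.3% of all genes were called higher and 12.2% lower, and 5 of the 9 rose and 3 fell. The CPM values of PARP2 KO and WT did not overlap for any of the 9, as was so for 68.1% of all tested genes. Without PARP2 KO replicate 3 the log2 fold changes were 3.46 for Car3, 2.55 for Car5b, 1.63 for Car4, 0.73 for Car2, 0.78 for Car13, -1.05 for Car8, -1.87 for Car12, -3.20 for Car9 and -6.24 for Car14, and Car8 alone lost its call (edgeR adjusted p = 0.0704). The median log2 fold change was 0.82 over the 9 and 0.02 over all tested genes. The 9 were picked with results of these data known, so their number past the threshold says nothing about the family. Of 16 carbonic anhydrase genes considered, 14 were tested and 11 passed, 6 higher and 5 lower. Outside the 9, the cytosolic Car7 and the lipid-anchored Car15 did not pass the threshold, so the division by site describes the 9 only.

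**Figure D1:**
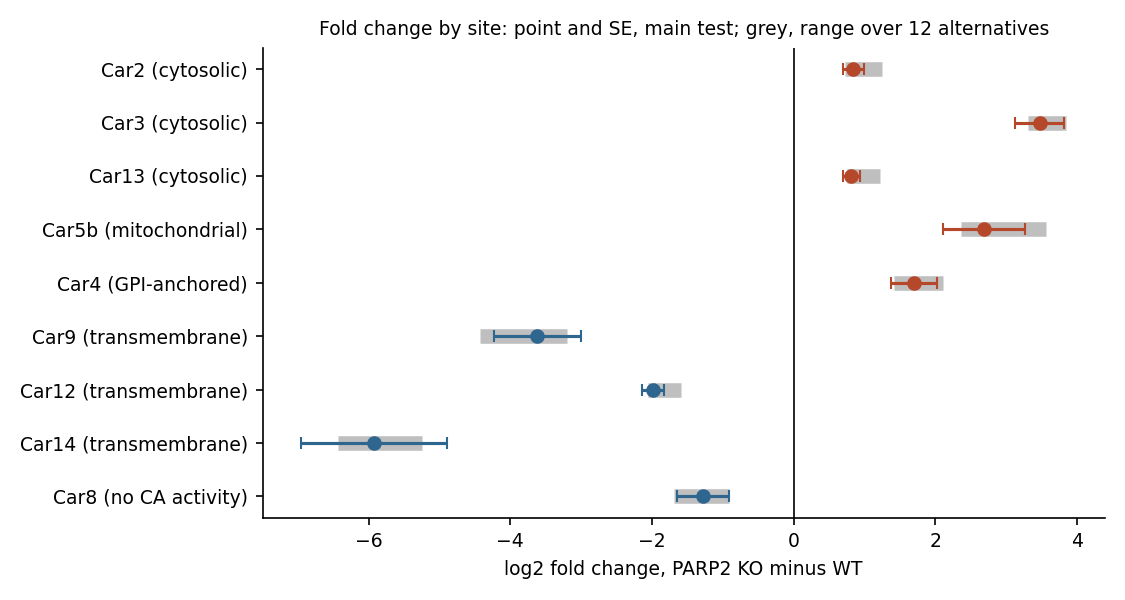
Log2 fold change of each gene, PARP2 KO minus WT, with genes grouped by where the protein sits. Points and bars are the estimate and its SE with 3 libraries a group, and grey bands span 12 other settings of scaling, filter, test and left-out library; Car2, Car3, Car13, Car5b and Car4 lie right of 0 in each of these settings, and Car9, Car12, Car14 and Car8 lie left of it.

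Car3 (ENSMUSG00000027559, chromosome 3, 14863512 to 14872523, GRCm38, plus strand) encodes the cytosolic isoform abundant in fat, muscle and liver, a slow enzyme compared with carbonic anhydrase 2. It had 6573, 4694 and 5915 CPM in PARP2 KO and 399.8, 395.1 and 751 CPM in WT. Every knockout library stood far above every wild-type library, and WT replicate 3 was the highest of its group. The mean was 5727 ± 953 CPM in PARP2 KO and 515 ± 204 CPM in WT (SD, n = 3 each). This is a log2 fold change of 3.47 (SE 0.346; adjusted p = 0.00204 by edgeR), or 11.1-fold. Car3 alone made up 0.782%, 0.492% and 0.718% of all counts in the PARP2 KO libraries, against 0.0329%, 0.0327% and 0.0724% in the WT libraries.

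Car5b (ENSMUSG00000031373, chromosome X, 163976822 to 164027997, minus strand) encodes a mitochondrial isoform, which supplies bicarbonate to carboxylating enzymes inside that organelle. Its values were 115, 97.7 and 139 CPM in PARP2 KO and 10.5, 9.16 and 34.9 CPM in WT. WT replicate 3 again stood above the other wild-type animals, but below every knockout. Means were 117 ± 20.6 CPM in PARP2 KO and 18.2 ± 14.5 CPM in WT (SD, n = 3 each; log2 fold change 2.69, SE 0.573; adjusted p = 0.0122 by edgeR). Without WT replicate 3 the log2 fold change was 3.57 (edgeR adjusted p = 0.00393).

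Car3 and Car5b rose beside the fat cell genes. All 12 fat cell markers rose (100%, beside 28% of all genes). Plin4 and Cidec, which encode proteins of the lipid droplet, were at 527 ± 134 and 587 ± 93.7 CPM in PARP2 KO and 43.1 ± 4.22 and 44.1 ± 19.3 CPM in WT (SD, n = 3 each). The summed level of the 12 markers ran from 8085 to 10595 CPM in PARP2 KO and from 679 to 1647 CPM in WT, with WT replicate 3 the highest of its group, and none was at 0 in all libraries. Relative to that sum, Car3 stood at 0.620, 0.581 and 0.598 in PARP2 KO and at 0.484, 0.582 and 0.456 in WT. Car5b stood at 0.0109, 0.0121 and 0.0140 of the sum in PARP2 KO and at 0.0127, 0.0135 and 0.0212 in WT. Both ratios, chosen after the values were seen, overlapped between the genotypes. The part of fat cell RNA in the rise of Car3 and Car5b was not tested beyond these ratios. Skeletal muscle and liver are also rich in Car3. Of 6 muscle markers tested 4 rose (66.7%, beside 28% of all genes) and 1 fell (16.7%, beside 25% of all genes). Atp2a1, the gene of a muscle calcium pump, rose to 0.486 ± 0.0964 CPM in PARP2 KO, against 0.0360 ± 0.0346 CPM in WT, and Ckm, the gene of muscle creatine kinase, fell to 0.521 ± 0.384 CPM in PARP2 KO, against 7.03 ± 5.56 CPM in WT (SD, n = 3 each; both examples chosen with their values in view). The 10 muscle markers summed to between 6.22 and 9.76 CPM in PARP2 KO and between 4.43 and 15.6 CPM in WT. The 6 liver markers summed to between 2.85 and 35.6 CPM in PARP2 KO and between 59.8 and 77.5 CPM in WT, and none of the 3 tested passed the threshold. Ttr supplied 37.7, 60.5 and 56.5 CPM of the sum in WT replicates 1, 2 and 3, so that in WT the liver sum mostly follows 1 gene. The part of either tissue in the level of Car3 was not tested.

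The tested genes whose profile over the 6 libraries lay closest to that of Car3 were Plin1, Adipoq and Aqp7, at a root mean square difference of 0.16, 0.22 and 0.24 log2 units among 13965 candidates. Plin1 encodes a lipid droplet coat protein, Adipoq the fat hormone adiponectin and Aqp7 a glycerol channel. The genes closest to Car5b were Slc36a2, Mmd and Ankef1, at 0.19, 0.20 and 0.22 log2 units. The measure uses log2(CPM + 0.5) minus the wild-type mean, and is a description only.

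**Figure D2:**
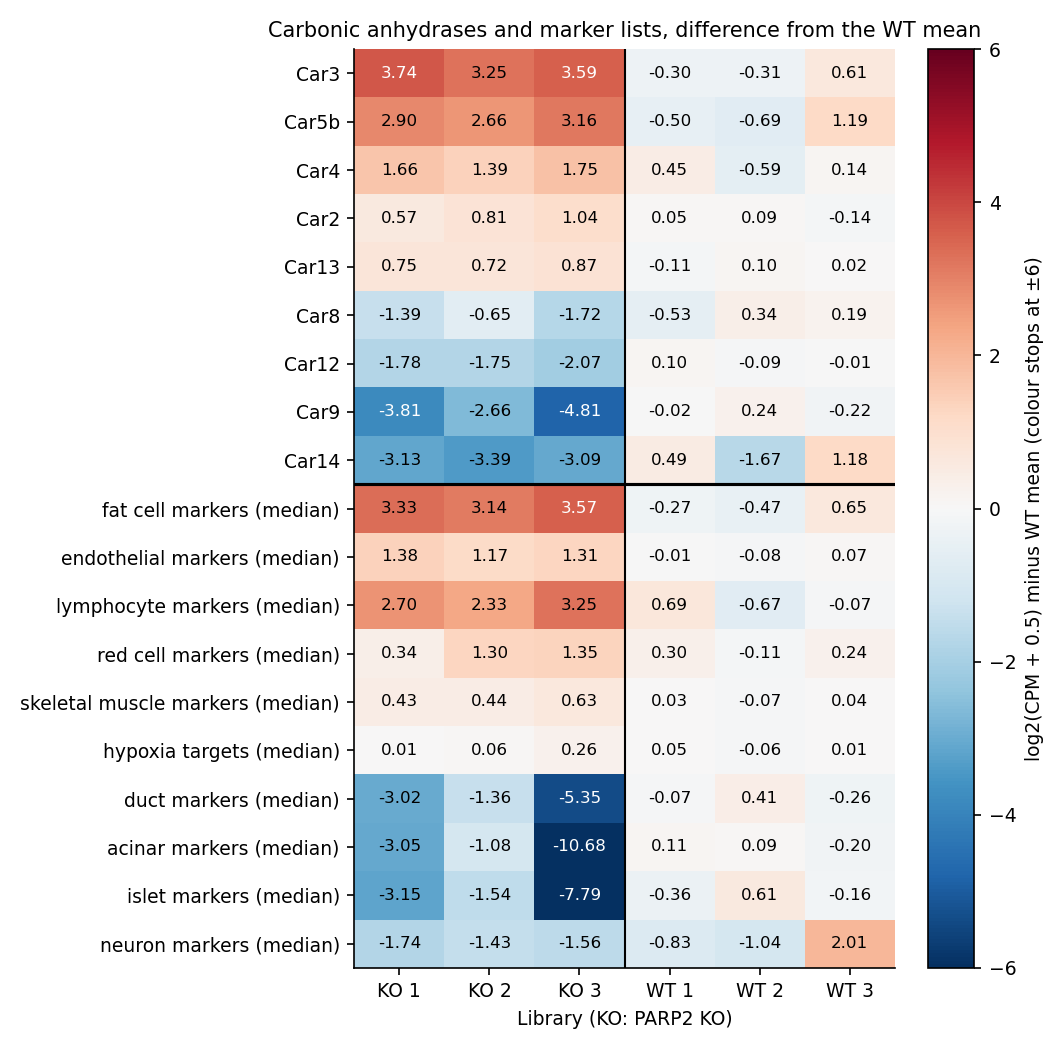
Each cell gives a library's log2(CPM + 0.5) minus the WT mean for the 9 genes (upper block) and the median of that quantity over marker and target lists (lower block), PARP2 KO libraries left of WT libraries. Car3 stood 3.74, 3.25 and 3.59 units above the WT mean in PARP2 KO replicates 1, 2 and 3 and the fat cell median 3.33, 3.14 and 3.57 units above, while the acinar median stood at -3.05, -1.08 and -10.68 units.

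Car4 (ENSMUSG00000000805, chromosome 11, 84957786 to 84966044, plus strand) encodes the lipid-anchored isoform of the outer cell surface, best known from capillary endothelium and kidney. It had 9.84, 8.11 and 10.5 CPM in PARP2 KO and 3.99, 1.68 and 3.10 CPM in WT. Every knockout library lay above the highest wild-type library, WT replicate 1. The mean was 9.50 ± 1.25 CPM in PARP2 KO and 2.92 ± 1.17 CPM in WT (SD, n = 3 each; log2 fold change 1.70, SE 0.33; adjusted p = 0.00767 by edgeR).

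Endothelial markers rose with it, 8 of 10 (80%, beside 28% of all genes). Their sum ran from 1057 to 1239 CPM in PARP2 KO and from 459.6 to 510.4 CPM in WT. Kdr, the gene of the main VEGF receptor, stood at 172 ± 15.4 CPM in PARP2 KO and 66.4 ± 3.22 CPM in WT (SD, n = 3 each). Car4 stood at 0.00847, 0.00768 and 0.00850 of the endothelial sum in PARP2 KO and at 0.00829, 0.00365 and 0.00607 in WT, which overlap. All 8 lymphocyte markers rose too (100%, beside 28% of all genes), summing to between 1530 and 2520 CPM in PARP2 KO and between 229 and 512 CPM in WT. Against that sum Car4 was at 0.00520, 0.00530 and 0.00418 in PARP2 KO and at 0.00779, 0.00733 and 0.00943 in WT, lower in every knockout library. The genes closest to Car4 in profile were Pstpip1, H2-M2 and Pvrig, at 0.09, 0.10 and 0.11 log2 units.

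Car2 (ENSMUSG00000027562, chromosome 3, 14886273 to 14900770, plus strand) encodes the fast cytosolic enzyme of duct cells, red cells and many other cell types. It had 18.6, 22.0 and 26.0 CPM in PARP2 KO and 12.8, 13.2 and 11.2 CPM in WT. The wild-type animals lay close together, and PARP2 KO replicate 3, with the least acinar RNA, was the highest. The mean was 22.2 ± 3.71 CPM in PARP2 KO and 12.4 ± 1.06 CPM in WT (SD, n = 3 each; log2 fold change 0.84, SE 0.152; adjusted p = 0.00603 by edgeR).

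Car2 was thus higher in every knockout library, while the summed level of the duct markers was lower in every one. Of 13 duct markers 3 fell by edgeR (23.1%, beside 25% of all genes) and 10 did not pass the threshold, Slc4a4 among them with a log2 fold change of 0.57. The duct sum was 268, 1024 and 37.2 CPM in PARP2 KO and 2701, 3416 and 2043 CPM in WT. In PARP2 KO replicate 3 Slc4a4 supplied 16.6 CPM of the sum and Spp1, another marker of the list, 1.52 CPM. In WT Slc4a4 stood at 12.8, 14.9 and 18.0 CPM and Spp1 at 1162, 1542 and 1007 CPM. Ratios to the duct sum in PARP2 KO replicate 3 thus rest on a different make-up of the list. The keratin gene Krt19 stood at 19.6 ± 16.3 CPM in PARP2 KO and 98.7 ± 16.7 CPM in WT, and the duct transcription factor gene Sox9 at 7.46 ± 7.46 CPM in PARP2 KO and 47.2 ± 12.7 CPM in WT (SD, n = 3 each). Both lost the call without PARP2 KO replicate 1, without any of the WT libraries and with no filter (edgeR adjusted p up to 0.104). Relative to the duct sum, Car2 was at 0.0694, 0.0215 and 0.698 in PARP2 KO and at 0.00474, 0.00385 and 0.00546 in WT. Red cell markers, another source of Car2, rose for 2 of 8 tested, Ermap and Alas2 (25%, beside 28% of all genes), and summed to between 159 and 460.3 CPM in PARP2 KO and between 63.1 and 143.5 CPM in WT. Alas2 (edgeR adjusted p = 0.0439) lost its call in 7 of 12 alternatives, and Ermap in 0. The part of red cells in the level of Car2 was not tested. The closest profiles to that of Car2 were those of Cfb, Mxd3 and Ces2e, at 0.06, 0.08 and 0.09 log2 units.

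Car13 (ENSMUSG00000027555, chromosome 3, 14641727 to 14663002, plus strand) encodes a further cytosolic isoform. It had 14.0, 13.7 and 15.3 CPM in PARP2 KO and 7.47, 8.73 and 8.23 CPM in WT, with the narrowest spread relative to the mean, within each genotype, among the 5 genes that rose. The mean was 14.3 ± 0.82 CPM in PARP2 KO and 8.14 ± 0.63 CPM in WT (SD, n = 3 each; log2 fold change 0.82, SE 0.12; adjusted p = 0.00364 by edgeR). Its closest profiles were those of Spg21, Afmid and Cry2, each at 0.05 log2 units.

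Car13, Car1, Car3 and Car2 lie in this order within 259 kb of chromosome 3, with Car3 ending 13.8 kb before Car2 begins. All 4 were called higher in PARP2 KO, by different amounts: 1.76-fold for Car13, 11.1-fold for Car3 and 1.79-fold for Car2. Car1, which encodes the abundant enzyme of red cells, had 15, 11 and 72 counts in PARP2 KO and 0, 0 and 3 counts in WT. The ratio of the depth-scaled totals was 23.6 (exact binomial 95% interval 7.85 to 117, counting error only), and PARP2 KO replicate 3 supplied most of the counts. The fitted log2 fold change of 4.39 was 3.18 without PARP2 KO replicate 3, and 7.78 without WT replicate 3, which leaves WT at 0 counts, so that this value rests on the prior count. The edgeR call of Car1 (adjusted p = 0.0256) ended on leaving out any of the WT libraries (adjusted p at most 0.0755).

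**Figure D3:**
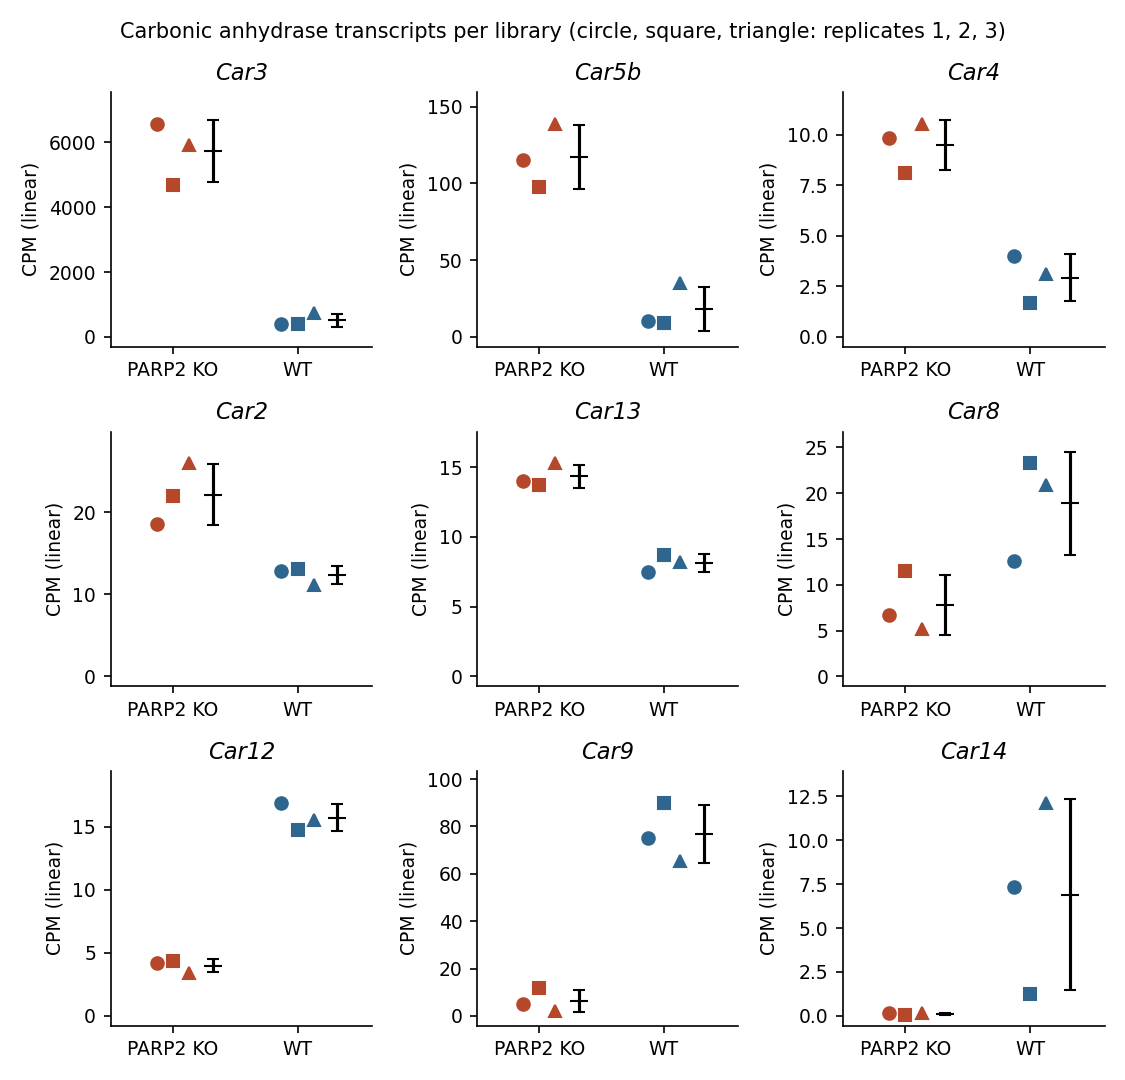
CPM of each of the 9 genes in every library on linear axes, PARP2 KO (red) left of WT (blue), with mean and SD in black. No panel shows overlap between the genotypes: Car3 lies between 4694 and 6573 CPM in PARP2 KO and at 395.1 to 751 CPM in WT, and Car12 between 3.37 and 4.32 CPM in PARP2 KO and at 14.7 to 16.9 CPM in WT.

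Car9 (ENSMUSG00000028463, chromosome 4, 43506966 to 43513729, plus strand) encodes the membrane-crossing isoform known from gastric epithelium and from many tumours, where hypoxia-inducible factors switch it on. It had 4.97, 11.6 and 2.24 CPM in PARP2 KO and 75.1, 89.9 and 65.6 CPM in WT. The highest knockout library lay far below the lowest wild-type library. Means were 6.27 ± 4.82 CPM in PARP2 KO and 76.9 ± 12.3 CPM in WT (SD, n = 3 each; log2 fold change -3.62, SE 0.612; adjusted p = 0.00605 by edgeR), or 12.3-fold lower. Without PARP2 KO replicate 2 the log2 fold change was -4.42 (edgeR adjusted p = 0.00148), and without PARP2 KO replicate 3 it was -3.20 (edgeR adjusted p = 0.00719).

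Within the knockout, Car9 took the order of the epithelial markers, highest in replicate 2 and lowest in replicate 3. Of the 14 acinar markers edgeR called 1 lower (7.14%, beside 25% of all genes) and 13 neither way. The 14 summed to 20996, 81909 and 104 CPM in PARP2 KO and 198644, 204804 and 141203 CPM in WT. Relative to the duct marker sum, Car9 was at 0.0186, 0.0113 and 0.0601 in PARP2 KO and at 0.0278, 0.0263 and 0.0321 in WT. Relative to the acinar sum it was at 2.37e-04, 1.42e-04 and 0.0216 in PARP2 KO and at 3.78e-04, 4.39e-04 and 4.65e-04 in WT. PARP2 KO replicates 1 and 2 were below every WT library on both ratios and PARP2 KO replicate 3 above every one. In PARP2 KO replicate 3 the duct sum had a different make-up, with Slc4a4 at 16.6 of 37.2 CPM. The 8 gastric epithelium markers summed to between 0.797 and 18.7 CPM in PARP2 KO and between 21.7 and 45.6 CPM in WT. None of the 3 of them that were tested passed the threshold. How far these cell types account for the level of Car9 was not tested. Exons of Car9 share 214 bases with the antisense gene Gm12454, which had 53, 42 and 49 counts in PARP2 KO and 43, 48 and 69 counts in WT. The genes closest to Car9 in profile were Scx, Ccl8 and Sgpp2, at 0.22, 0.28 and 0.29 log2 units.

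Car12 (ENSMUSG00000032373, chromosome 9, 66713686 to 66766845, plus strand) encodes a membrane-crossing isoform of secretory epithelia and tumours. It had 4.22, 4.32 and 3.37 CPM in PARP2 KO and 16.9, 14.7 and 15.6 CPM in WT. The knockout libraries lay within about 1 CPM of each other, and their acinar shares ran from 0.0126% to 8.58%. Relative to the duct marker sum, Car12 was at 0.01575, 0.00422 and 0.0905 in PARP2 KO and at 0.00626, 0.00432 and 0.00762 in WT. That sum had a different make-up in PARP2 KO replicate 3. The part of acinar or duct cells in the level of Car12 was not tested. The mean was 3.97 ± 0.525 CPM in PARP2 KO and 15.7 ± 1.09 CPM in WT (SD, n = 3 each; log2 fold change -1.99, SE 0.154; adjusted p = 0.00201 by edgeR), or 3.96-fold lower. Its closest profiles were those of Ankle1, Rcor2 and Ide, at 0.10, 0.13 and 0.13 log2 units.

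Car14 (ENSMUSG00000038526, chromosome 3, 95897768 to 95904691, minus strand) encodes the third membrane-crossing isoform, best known from kidney, retina and brain. It had 5, 1 and 6 counts in PARP2 KO and 187, 29 and 352 counts in WT, that is 0.135, 0.0316 and 0.154 CPM in PARP2 KO and 7.32, 1.25 and 12.1 CPM in WT. The knockout libraries held at most 6 counts each, and the wild-type animals differed widely. The log2 fold change was -5.92 (SE 1.03; adjusted p = 0.00606 by edgeR), and it was -5.25 without WT replicate 3 (edgeR adjusted p = 0.0145). Neuron markers were also highest in WT replicate 3, summing to 135 CPM there, to 8.69 and 8.77 CPM in WT replicates 1 and 2 and to between 10.6 and 15.3 CPM in PARP2 KO. Car14 was at 0.00882, 0.00299 and 0.0115 of that sum in PARP2 KO and at 0.842, 0.142 and 0.0897 in WT. Every knockout library was lower on this ratio. Stmn2, not past the threshold, supplied most of the knockout sum, at 13.95, 8.14 and 11.5 CPM in PARP2 KO replicates 1, 2 and 3. Of 5 neuron markers tested 3 fell (60%, beside 25% of all genes) and 2 did not pass the threshold. Log2 fold changes of the 3 were -6.23 for Th, -6.08 for Nefl and -2.58 for Elavl4 (SE 1.93, 1.58 and 0.679). All 3 were highest in WT replicate 3. In WT replicates 1, 2 and 3 Th was at 0.509, 1.20 and 26.9 CPM, Nefl at 0.744, 0.430 and 8.92 CPM and Elavl4 at 0.822, 0.860 and 3.10 CPM. In PARP2 KO they were at most 0.252, 0.0771 and 0.379 CPM. Of 4 kidney tubule markers tested, Slc12a3 rose and Cdh16 fell (25% each, beside 28% and 25% of all genes). The 7 markers of that list summed to between 2.44 and 9.85 CPM in PARP2 KO and between 18.9 and 24.2 CPM in WT. Cdh16 was at 0.132 ± 0.0479 CPM in PARP2 KO and 7.57 ± 5.59 CPM in WT (SD, n = 3 each). The part of neurons or kidney tubule in the level of Car14 was not tested. Exons of Car14 share 445 bases, 17.5% of their length, with the opposite-strand gene Aph1a, which had 307 to 316 counts in PARP2 KO and 252 to 282 counts in WT. The closest profiles were those of Slc10a4, Eef1a2 and Ppp2r2c, at 0.32, 0.33 and 0.48 log2 units.

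Promoter sequence of RefSeq (GRCm38.p6) was at hand for 5 of the 9 genes, Car4, Car5b, Car9, Car12 and Car14. Stretches of 4 of them are printed because Car9 is a textbook target of hypoxia-inducible factors, whose binding core is ACGTG or GCGTG, and because Car12, Car14 and Car5b show the core absent or present in genes that moved either way. Capitals mark a match to the core on either strand (CACGT and CACGC are the reverse strand), and all run 5′ to 3′ along the gene's own strand.
Car9, chr4:43506996-43507025, plus strand: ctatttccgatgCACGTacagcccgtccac
Car14, chr3:95904686-95904715, minus strand: agcccaggcaccacccccctcctCACGTac
Car12, chr9:66713436-66713685, plus strand: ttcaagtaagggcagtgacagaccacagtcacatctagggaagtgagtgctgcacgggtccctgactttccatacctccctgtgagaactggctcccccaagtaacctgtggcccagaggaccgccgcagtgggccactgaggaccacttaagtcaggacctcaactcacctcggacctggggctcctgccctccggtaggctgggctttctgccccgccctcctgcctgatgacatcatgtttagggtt
Car5b, chrX:164028011-164028260, minus strand: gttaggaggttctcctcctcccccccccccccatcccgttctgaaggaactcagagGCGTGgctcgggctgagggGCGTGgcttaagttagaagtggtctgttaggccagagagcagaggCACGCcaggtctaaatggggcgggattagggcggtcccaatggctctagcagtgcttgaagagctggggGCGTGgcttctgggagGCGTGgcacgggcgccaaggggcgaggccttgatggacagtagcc
Over the 250 bases before the start that RefSeq gives, Car9 held 1 match, beginning 18 bases before that start, and Car14 held 1, beginning 7 bases before it. GENCODE, which gives the gene positions above, starts both genes further upstream. Of the Car9 window 60 bases, the match among them, lie inside the gene as GENCODE places it, and of the Car14 window 6 bases, with most of its match. Car5b, which rose, held 5 matches, and Car12, which fell, and Car4, which rose, held 0. Of 32851 promoter windows of this length, 38.6% held at least 1 match. Neither the E-box CACGTG, a core of Myc binding that overlaps ACGTG and was in 6.02% of all windows, nor the TATA box TATAAA on the gene's strand, in 7.59%, was found in the 5 windows. A match is a string of letters and not a bound site.

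Genes of the hypoxia list moved in both directions. Of its 22 genes, which are hypoxia targets, sensors and factors, 8 rose and 5 fell. These were 36.4% and 22.7%, beside 28% and 25% of all genes, with a median log2 fold change of 0.21 over the list. Among the 8 were the hypoxia factor genes Hif1a and Epas1 and the sensor gene Egln1. With scaling by library totals alone 2 fell. Bnip3, which encodes a mitophagy receptor, stood at 32.7 ± 1.76 CPM in PARP2 KO and 9.37 ± 0.346 CPM in WT. Epas1, which encodes the hypoxia factor HIF2 alpha, stood at 279 ± 25.2 CPM in PARP2 KO and 113 ± 8.66 CPM in WT, and Pfkfb3, which encodes a regulator of glycolysis, at 382 ± 112 CPM in PARP2 KO and 70.2 ± 16.3 CPM in WT. Tpi1, which encodes a glycolytic enzyme, was lower, at 107 ± 10.2 CPM in PARP2 KO and 171 ± 4.05 CPM in WT (SD, n = 3 each). With scaling by library totals alone the call of Tpi1 ended (edgeR adjusted p = 0.0651).

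Car8 (ENSMUSG00000041261, chromosome 4, 8143362 to 8239041, minus strand) encodes the member without enzyme activity. It had 6.68, 11.5 and 5.19 CPM in PARP2 KO and 12.6, 23.3 and 20.9 CPM in WT. The gap between the genotypes was narrow, with PARP2 KO replicate 2 just below WT replicate 1. The mean was 7.80 ± 3.31 CPM in PARP2 KO and 18.9 ± 5.62 CPM in WT (SD, n = 3 each; log2 fold change -1.28, SE 0.367; adjusted p = 0.0283 by edgeR). The call ended without PARP2 KO replicates 1 or 3 and without WT replicates 2 or 3 (edgeR adjusted p up to 0.108), and with scaling by library totals alone (edgeR adjusted p = 0.053). Like Car9, Car8 was highest in PARP2 KO replicate 2 and lowest in replicate 3. Itpr1, whose channel is the known partner of the Car8 protein in mouse brain, was at 137 ± 10.8 CPM in PARP2 KO and 66.6 ± 4.78 CPM in WT (SD, n = 3 each; log2 fold change 1.04, SE 0.096; adjusted p = 0.00201 by edgeR). Among the closest profiles to that of Car8 were those of Plk2 and Atp1b1, at 0.09 and 0.10 log2 units.

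Levels were compared between genes only per length, as TPM, counts per annotated exon length. TPM is scaled to the library total, so that values of all other genes are raised where acinar RNA is low, and it is used here for order and shares within a library. In PARP2 KO the order was Car3 at 7194 ± 2409 TPM, Car5b at 66.6 ± 24.4, Car2 at 32.6 ± 10.4, Car13 at 22.2 ± 5.72, Car4 at 17.4 ± 5.67, Car9 at 8.57 ± 4.80, Car8 at 6.72 ± 1.25, Car12 at 1.82 ± 0.279 and Car14 at 0.161 ± 0.114 TPM. In WT it was Car3 at 348 ± 198 TPM, Car9 at 61.1 ± 5.39, Car2 at 9.39 ± 0.649, Car8 at 9.19 ± 3.31, Car13 at 6.58 ± 1.20, Car5b at 5.76 ± 5.46, Car14 at 5.39 ± 4.85, Car12 at 3.84 ± 0.628 and Car4 at 2.78 ± 1.16 TPM (SD, n = 3 each). In PARP2 KO the ranges of neighbours overlapped from Car5b down to Car8, although Car3, Car5b, Car2, Car13 and Car4 kept this order within each of the 3 libraries. In WT, Car3 and Car9 stood clear of all others, and from Car2 down to Car4 the ranges of neighbours overlapped.

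Leaving Car3 aside, the genotypes differed in which isoforms made up the family. Car9 supplied 5.22%, 11.7% and 2.05% of the summed TPM of the other 8 genes in PARP2 KO and 61.3%, 66.1% and 50.9% in WT. Car5b supplied 43.8%, 35.6% and 46.1% in PARP2 KO and 3.10%, 2.44% and 9.80% in WT.

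**Figure D4:**
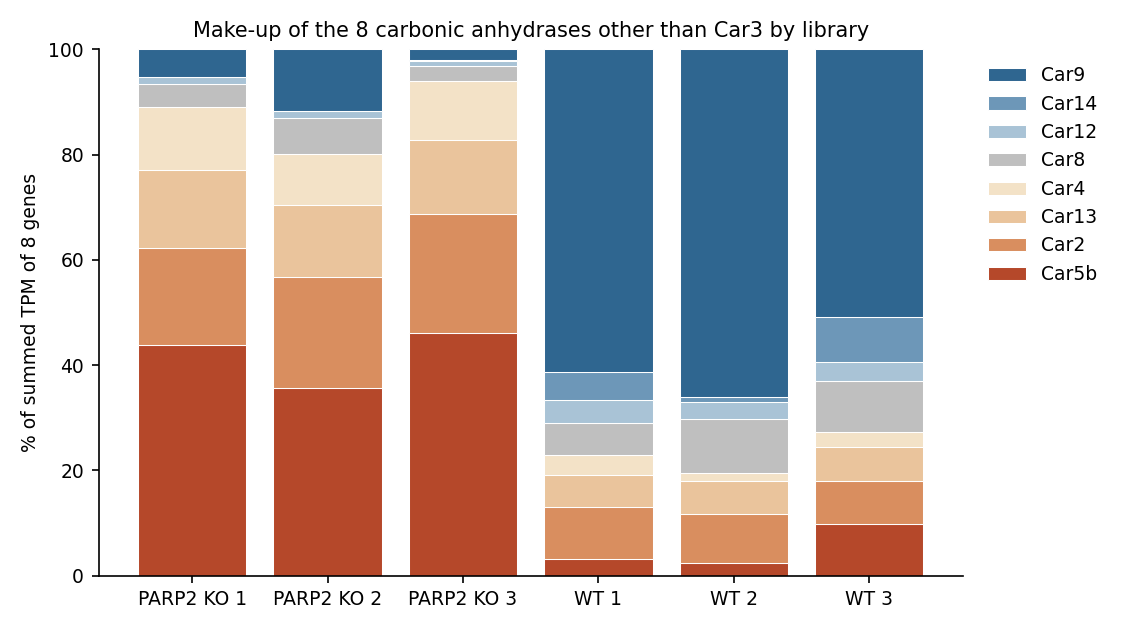
Share of each gene in the summed TPM of the 8 carbonic anhydrases other than Car3, one bar per library, PARP2 KO left of WT. Car5b (dark red) took 35.6% to 46.1% of the PARP2 KO bars and 2.44% to 9.80% of the WT bars, and Car9 (dark blue) 2.05% to 11.7% of the PARP2 KO bars and 50.9% to 66.1% of the WT bars.

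Of the remaining carbonic anhydrase genes Car11 had the highest level per length, at 5.71 ± 0.905 TPM in PARP2 KO, where it stood above Car12 and Car14, and 2.92 ± 0.923 TPM in WT, where it stood next to Car4 (SD, n = 3 each). Car10, which encodes a brain protein without enzyme activity, was at 0.204 ± 0.156 CPM in PARP2 KO and 0.758 ± 0.0151 CPM in WT (SD, n = 3 each; edgeR adjusted p = 0.0459), a call that ended without PARP2 KO replicate 1 or any WT library, with no filter and with scaling by library totals alone (edgeR adjusted p up to 0.101). Car7, a cytosolic isoform of brain, had 2.10 ± 0.239 CPM in PARP2 KO and 1.62 ± 0.368 CPM in WT (SD, n = 3 each), not past the threshold. Car11, a further member without activity, had 3.15 ± 0.348 CPM in PARP2 KO and 2.98 ± 0.457 CPM in WT, and the lipid-anchored Car15 0.432 ± 0.0656 CPM in PARP2 KO and 0.445 ± 0.143 CPM in WT (SD, n = 3 each), neither past the threshold. Same-strand exons of Gm20518 cover 65.7% of those of Car15, so its counts are uncertain. The mitochondrial Car5a, with 4 counts in all PARP2 KO libraries and 2 in all WT libraries, and the secreted Car6, with 6 counts in PARP2 KO and 11 in WT, were too low to test.

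Carbonic anhydrases work beside transporters that carry bicarbonate, protons and lactate. Of 31 such genes 25 were tested, 7 rose and 7 fell, with a median log2 fold change of -0.10. Each was 28% of those tested, beside 28% of all genes called higher and 25% called lower. Without PARP2 KO replicate 1 the numbers were 4 and 3, and without PARP2 KO replicate 2 they were 7 and 12. With scaling by library totals alone they were 11 and 2, where 42.3% of all genes were called higher and 12.2% lower. The lactate transporter gene Slc16a1 was at 67.2 ± 9.93 CPM in PARP2 KO and 107 ± 9.82 CPM in WT (edgeR adjusted p = 0.00794, or 0.21 with scaling by library totals alone). Bsg, which encodes basigin, the chaperone of that transporter, was at 223 ± 34.3 CPM in PARP2 KO and 403 ± 30.4 CPM in WT (SD, n = 3 each; edgeR adjusted p = 0.00461). The chloride channel gene Cftr and the bicarbonate cotransporter gene Slc4a4 of duct cells, named after their values were seen, were at 4.04 ± 4.81 and 22.7 ± 5.28 CPM in PARP2 KO and 20.2 ± 8.91 and 15.2 ± 2.62 CPM in WT (SD, n = 3 each), neither past the threshold.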

How the data were processed

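The submitters' processing notes name the genome GRCm38 (mm10) and the tools DESeq2 1.28.1, STAR 2.5.3a and FastQC 0.11.5 without their roles, and per the labels' protocols the libraries were made with a stranded mRNA kit. How reads were counted, on which strand and with which annotation is not given in the sources used here, so overlapping genes have uncertain counts. The authors deposited raw read counts for 29721 genes and a log2 table. The deposited log2 values equalled log2(count / size factor + 1) to within 5.2e-14, so only the counts were tested. Library totals were 28105021 to 32055565 counts. Intervals cover counting error only.

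Genes were tested with edgeR 4.0.16 (quasi-likelihood F-test, robust, TMM scaling, filterByExpr) in R 4.3.3, genotype as the only term, with Benjamini-Hochberg adjustment over 17652 genes and 0.05 as the threshold. Fold changes are PARP2 KO minus WT, and SE is the absolute log2 fold change over the root of F. The procedure was run on simulated counts in which few genes changed, as many up as down. In these data 53% of tested genes were called, so that run cannot check the scaling or the error rate here. The series design text says that libraries came from different animals, and pairs within a genotype differed by a chi-square per degree of freedom of 29.1 or more. Replicate numbers follow deposit order and pair nothing. TPM used exon lengths of GENCODE M21, which holds all 29721 identifiers, 29704 of them at the same position.

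The 9 genes and all lists were chosen with earlier results of these data known. Named were the whole family, up to 4 genes of smallest p from other lists, for each of the 9 the 3 closest profiles among genes of at least 1 CPM, and Parp2. Further marker genes are given as examples only, and some genes that this rule names are not reported here. Alternatives were DESeq2 size factors, library totals, TMM without acinar genes, no filter, the Wald test of DESeq2 1.42.0, voom of limma 3.58.1 and each library left out.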

Additional observations from a re-analysis of the deposited data

How the results depend on the processing

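The 5 carbonic anhydrase genes called higher stayed so under all 12 alternatives, and the 4 called lower were 3 or 4. Of the 108 fold changes that these alternatives gave for the 9 genes, 103 kept their direction and side of the threshold, 5 (all of Car8) lost the call and 0 changed sign. With scaling by library totals alone the median log2 fold change of all genes was 0.42 in place of 0.02, 7475 genes were higher and 2160 lower in place of 4938 and 4415, acid-base transport genes were 11 and 2, hypoxia genes fell for 2, and 0 of the remaining carbonic anhydrases fell, as with no filter. Limma-voom called 11 acid-base transport genes lower. With each library left out in turn, all genes called were 3602 to 5125 higher and 2543 to 5032 lower. Those of acid-base transport were 4 to 8 higher and 3 to 12 lower, those of hypoxia 6 to 7 higher and 4 to 7 lower, and those of the remaining carbonic anhydrases 0 to 1 in either direction. Of 324 fold changes of 27 other genes, chosen after seeing the data, 282 kept direction and call, 33 lost and 5 gained the call. The other 4, none past the threshold, changed sign: Car11 was at -0.021 without WT replicate 1 and between that and 0.20 with each library left out, and Car15 was at 0.34 with library totals, 0.05 without PARP2 KO replicate 1, 0.18 without WT replicate 1 and between -0.27 and 0.18 with each library left out. The causes were not tested. Few counts limit Car14 in PARP2 KO, Car1 and Car10. No paired analysis was possible because the labels give no replicate numbers that the genotypes share.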
